A study of Mus musculus with 16 samples.

Results

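The 5 muscarinic acetylcholine receptor genes of the mouse, Chrm1 to Chrm5, were followed across 16 RNA-sequencing libraries of the dentate gyrus. They were chosen by gene name, and these 5 rows were taken from the 24421 gene names of the deposited abundance tables. The mice were male C57BL/6 animals of 1 year of age, either wild-type (p16Ink4a +/+) or homozygous knockout (p16Ink4a -/-) for the cell cycle inhibitor p16Ink4a. Sedentary animals formed the groups p16 WT CTL and p16 KO CTL, and animals given 12 days of voluntary wheel running formed p16 WT RUN and p16 KO RUN. Each group comprised 4 libraries, and each library pooled the dentate gyri of 2 mice, so that the p-values below measure the spread between pools. The knockout was present throughout life and in all cells, and the dissected tissue held neurons and glia of many types. In such bulk tissue, fewer cells of a type and less RNA per cell cannot be told apart.

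Muscarinic receptors are the G protein-coupled receptors for acetylcholine. The M1, M3 and M5 receptors, encoded by Chrm1, Chrm3 and Chrm5, act through Gq and phospholipase C. The M2 and M4 receptors, encoded by Chrm2 and Chrm4, act through Gi/o proteins, which inhibit adenylyl cyclase and open inwardly rectifying potassium channels. The hippocampus receives its acetylcholine mainly from neurons of the medial septum and diagonal band, whose cell bodies lie outside the dissected tissue.

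The members were placed by the tables on the mm10 mouse genome, in 1-based coordinates. Chrm1 lay at chr19:8664005-8683602 on the plus strand, Chrm2 at chr6:36388084-36524774 on the plus strand and Chrm3 at chr13:9876613-10360803 on the minus strand. Chrm4 lay at chr2:91922189-91929829 on the plus strand and Chrm5 at chr2:112479072-112480817 on the minus strand. The Chrm5 entry was a single block of 1746 bases that held its whole coding exon, whereas the RefSeq gene of build GRCm38.p6 reached 55544 bases farther upstream. Reads from exons in that upstream part did not fall within the entry. At the 3′ end, the GENCODE M21 genes of Chrm2 and Chrm3 reached past the entries, to positions 36528414 and 9875486. The effect of these limits on the levels and ratios of the members was not tested. The Chrm4 entry overlapped Mdk, a gene of the opposite strand, by 25 bases, and the Chrm2 entry overlapped 9330158H04Rik by 151 bases and Mir490 by 84, both listed at 0.

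The receptors are close relatives, and the coding sequences of GENCODE M21, of 1383 bases for Chrm1 to 1770 bases for Chrm3, show how far reads can be assigned to 1 member. The stretch below, of 75 coding bases, holds the longest run shared by any pair of members, 29 bases between Chrm1 and Chrm4. It is shown for all 5 genes, 5′ to 3′, with bases that differ from Chrm1 in capitals.
Chrm1: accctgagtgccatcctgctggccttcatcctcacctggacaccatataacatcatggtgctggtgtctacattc
Chrm3: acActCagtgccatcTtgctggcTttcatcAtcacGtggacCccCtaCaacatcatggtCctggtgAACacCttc
Chrm5: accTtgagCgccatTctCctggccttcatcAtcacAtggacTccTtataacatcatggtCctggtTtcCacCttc
Chrm2: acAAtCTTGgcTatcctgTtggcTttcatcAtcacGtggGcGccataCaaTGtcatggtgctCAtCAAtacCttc
Chrm4: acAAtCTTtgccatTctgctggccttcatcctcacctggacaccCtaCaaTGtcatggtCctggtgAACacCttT
Chrm5 differed from Chrm1 at 12 of these bases, Chrm3 at 14, Chrm4 at 16 and Chrm2 at 22. Over aligned coding bases, the identity between members ran from 67.9% for Chrm4 and Chrm5 to 73.0% for Chrm1 and Chrm5. In the most similar ungapped stretch of 150 bases, the length of 1 read, Chrm1 and Chrm5 still differed at 23 bases, and every other pair at 26 or more. A read within the coding sequence of 1 member therefore matched no other member over its full length.

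Libraries that stood apart are described first, and the alternatives that leave them out were chosen after seeing the data. The summed TPM of 8 nuclear RNAs, such as Malat1 and Meg3, lay between 1828 and 2533 in 13 libraries but was 977 in p16 WT CTL replicate 2, 541 in p16 KO CTL replicate 6 and 479 in p16 KO CTL replicate 7. The markers of CA1 pyramidal neurons summed to 302 TPM in p16 KO CTL replicate 8 and to 83.9 to 177 TPM in all other libraries. The markers of cholinergic neurons summed to 1.95 TPM in p16 KO RUN replicate 14 and to at most 0.537 TPM elsewhere. Mean coverage differed between libraries from 0.622 to 1.94 times the average. Cdkn2a, the gene that encodes p16Ink4a, did not exceed 0.586 TPM in the wild-type libraries or 0.413 TPM in the knockout libraries, and at such levels it did not check the genotype. The granule neuron markers were all detected, 10 of 10 at a mean of at least 1 TPM, with Prox1, a transcription factor of granule neurons, at 127 TPM.

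Chrm1 was the dominant muscarinic transcript in every library. In TPM, a share of transcripts corrected for gene length, its mean level over the 16 libraries was 146 ± 9.05 (SD), and it accounted for 73.9% of the summed muscarinic TPM, with a range of 64.5% to 80.9%. Chrm3 followed at 32.2 ± 9.55 TPM and a mean share of 16.0%, and Chrm4 at 17.3 ± 3.28 TPM and 8.67%. Chrm2 reached only 1.82 ± 0.602 TPM, or 0.908% of the sum, and Chrm5 0.958 ± 0.554 TPM, or 0.479%. Among the 17317 genes tested, 8.20% had a higher mean level than Chrm1, 34.8% than Chrm3, 48.9% than Chrm4, 77.9% than Chrm2 and 83.7% than Chrm5.

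The order Chrm1, Chrm3, Chrm4, Chrm2, Chrm5 held in 14 of 16 libraries. In the other 2 libraries, p16 WT CTL replicate 4 and p16 KO CTL replicate 5, Chrm5 exceeded Chrm2. The ratio of Chrm1 to Chrm3 had a median of 4.73 and ran from 2.74 to 7.58, and that of Chrm3 to Chrm4 had a median of 1.85 and ran from 1.08 to 2.52. Chrm4 exceeded Chrm2 with a median ratio of 10.4. Only Chrm2 and Chrm5, with a ratio from 0.741 to 7.18, were neighbours whose levels overlapped within libraries. Hence the Gq-coupled Chrm1 and Chrm3 made up most of the muscarinic transcripts, and Chrm4 was the main Gi/o-coupled member.

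**Figure D1:**
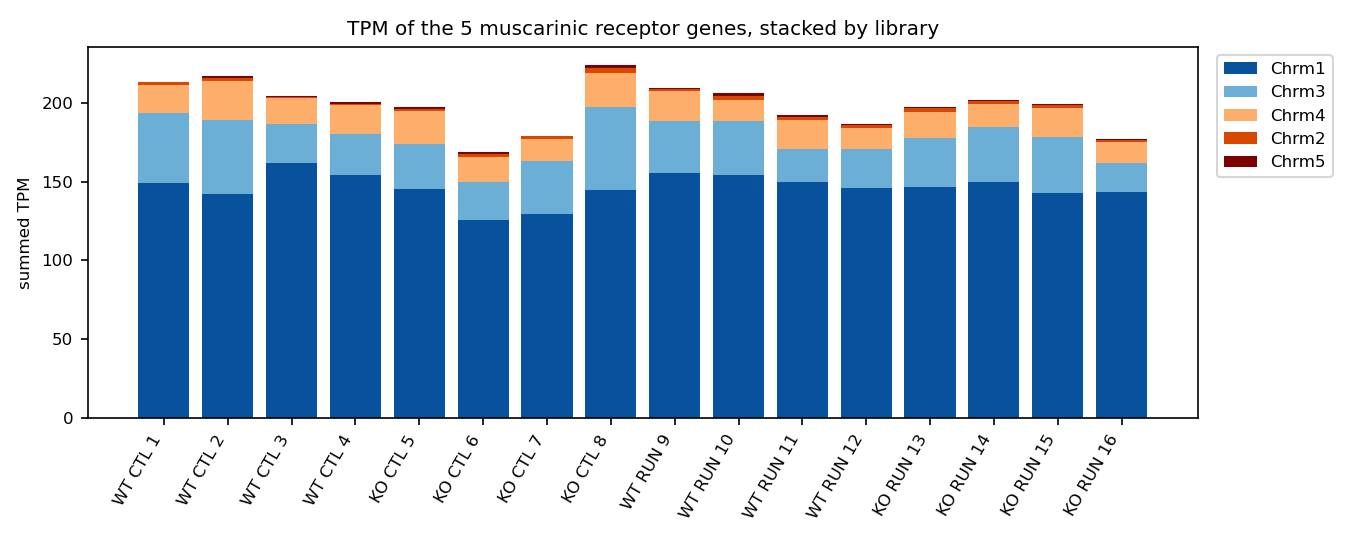
TPM (vertical axis) of the 5 muscarinic receptor genes stacked in each of the 16 libraries (horizontal axis, group and replicate number). Chrm1, the lowest segment, makes up 64.5% to 80.9% of each bar, and Chrm2 and Chrm5 are thin bands at the top.

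Chrm1, the receptor of principal neurons in cortex and hippocampus, was also the most constant member, with a coefficient of variation of 6.18% over the 16 libraries. Its levels were 149, 142, 162 and 154 TPM in p16 WT CTL and 145, 126, 130 and 145 TPM in p16 KO CTL. In the runners they were 155, 155, 150 and 146 TPM in p16 WT RUN and 147, 150, 143 and 143 TPM in p16 KO RUN. The lowest 2 values, in p16 KO CTL, belonged to replicates 6 and 7, the libraries lowest in nuclear RNA. In TPM as deposited, all p16 WT RUN values lay above all p16 KO CTL values, 146 to 155 against 126 to 145 TPM. Every other pair of groups overlapped. On the scaled log2 values used for the tests below, these groups overlapped too. There p16 KO CTL replicate 8, at 7.22, lay above p16 WT RUN replicates 11 and 12, both at 7.19. No set compares this pair of groups, which differ in both factors. How many of all genes separate in this pair was not determined, so the separation in unscaled TPM is given as a description only.

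Chrm3, the second Gq-coupled receptor, spread more widely, with a coefficient of variation of 29.7%. It was measured at 44.6, 47.2, 25.1 and 26.1 TPM in p16 WT CTL and at 28.8, 23.9, 33.9 and 52.8 TPM in p16 KO CTL. The runners had 33.4, 33.9, 20.4 and 25.0 TPM in p16 WT RUN and 30.6, 34.8, 35.5 and 18.9 TPM in p16 KO RUN. Both sedentary groups thus held the highest libraries, whereas the lowest library was a runner, and every group covered a wide and overlapping range.

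Chrm5, the rarest member and the third Gq-coupled receptor, is best known from midbrain dopamine neurons and blood vessels. Its levels were 0.422, 1.19, 0.630 and 1.22 TPM in p16 WT CTL and 1.46, 1.24, 0.368 and 2.36 TPM in p16 KO CTL. They were 0.593, 1.62, 1.20 and 0.887 TPM in p16 WT RUN and 0.612, 0.280, 0.674 and 0.576 TPM in p16 KO RUN. The p16 KO RUN libraries were all at or below 0.674 TPM, with replicate 14 lowest at 0.280 TPM. However, p16 KO CTL replicate 7, p16 WT CTL replicates 1 and 3 and p16 WT RUN replicate 9 lay in the same range. From coverage and read length, the p16 KO RUN values corresponded to 7.72 to 20.3 reads of 150 bases per library and the p16 KO CTL values to 23.0 to 76.3. The p16 WT RUN values corresponded to 14.1 to 34.6 reads and the p16 WT CTL values to 15.4 to 83.2. These read equivalents are not corrected for the depth of the library. How much of the spread was counting error was not tested.

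Chrm4, the more abundant Gi/o-coupled receptor, had 17.7, 24.4, 16.2 and 18.2 TPM in p16 WT CTL and 21.0, 16.1, 13.8 and 21.4 TPM in p16 KO CTL. In the runners it had 18.6, 13.5, 18.9 and 12.9 TPM in p16 WT RUN and 17.0, 14.4, 18.6 and 13.2 TPM in p16 KO RUN. The 3 highest libraries were sedentary, and 4 of the 5 lowest were runners, but the groups overlapped.

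Chrm2, the classical autoreceptor of cholinergic terminals and a receptor of interneurons, had 1.92, 2.34, 1.03 and 1.03 TPM in p16 WT CTL and 1.08, 1.57, 1.69 and 3.18 TPM in p16 KO CTL. It had 1.77, 2.78, 1.77 and 1.99 TPM in p16 WT RUN and 1.99, 2.01, 1.73 and 1.17 TPM in p16 KO RUN. Its highest value was that of p16 KO CTL replicate 8, the library highest in CA1 markers, and again no group stood apart.

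**Figure D2:**
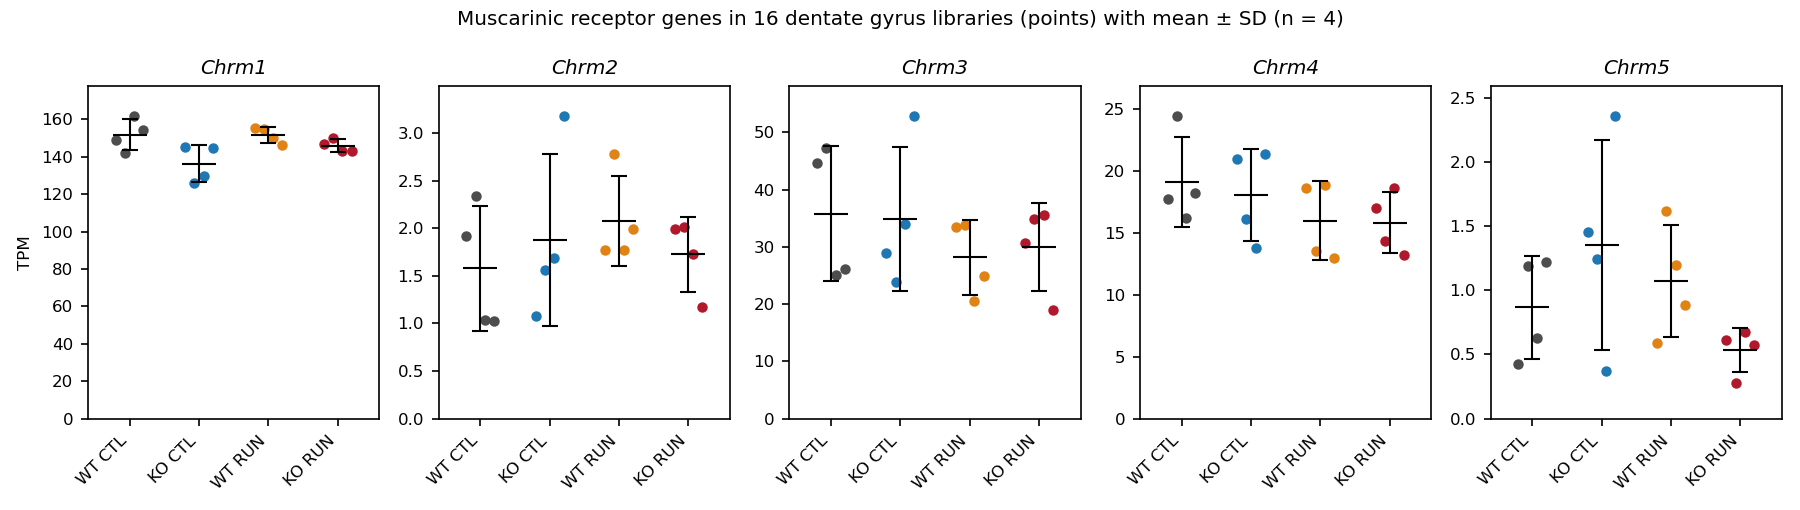
TPM (vertical axes, each from 0 and on its own scale) of each muscarinic receptor gene in the 4 groups, with points for libraries and bars for the mean ± SD (n = 4). Chrm1 stays between 126 and 162 TPM, while Chrm5 in p16 KO RUN lies between 0.280 and 0.674 TPM.

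Of the pairwise comparisons between the groups, those the study defined as Sets A to E were made. Running was compared with rest within the knockouts in Set A and within the wild types in Set C. The knockout was compared with the wild type at rest in Set B and among runners in Set E. Set D changed both factors, comparing the running knockouts with sedentary wild types. The interaction asked whether the difference by running differed between genotypes, and an additive model compared all 8 runner with all 8 sedentary libraries. Sets that share a group are not independent of each other. Differences are given on the scale of log2(scaled TPM + 0.1), which understates changes of the lowest genes, with limma p-values, and both the study's threshold of an unadjusted p under 0.05 and a Benjamini-Hochberg adjusted p under 0.05 were applied.

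No muscarinic receptor gene had an adjusted p under 0.05 in limma in any of the 7 comparisons, and 2 of the 35 single comparisons reached an unadjusted p under 0.05. These were Chrm5 in Set E and Chrm4 between runners and sedentary mice. Over all genes tested, the unadjusted threshold was passed by 18.5% for Set A and 6.69% for Set B, by 4.81% and 8.63% for Sets C and D, by 3.87% for Set E, by 5.48% for the interaction and by 17.5% between runners and sedentary mice. The adjusted threshold was passed by 0.0173% of the genes in Set A, 0.00577% in Set E, 0.797% between runners and sedentary mice and 0% in the others. The groups of a set did not overlap for 10.4% of the genes tested by Set A, and for 2.7%, 3.34%, 5.68% and 2.46% of those tested by Sets B, C, D and E. For each of the 5 members the groups overlapped in every set.

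Chrm5 was lower in p16 KO RUN than in p16 WT RUN, at 0.535 ± 0.175 against 1.07 ± 0.439 TPM (SD, n = 4). The log2 difference in Set E was -0.85 (SE 0.35, limma p = 0.0377, adjusted p = 1), and the two-sided exact permutation test over the 8 libraries gave p = 0.0857, where 0.0286 is the smallest it can give. The 95% interval of the difference was -1.64 to -0.06. Of the 4 p16 KO RUN libraries, 2 lay below the lowest p16 WT RUN library. Against sedentary knockouts, at 1.36 ± 0.818 TPM, the log2 difference in Set A was -1.08 (SE 0.478, limma p = 0.0501, adjusted p = 0.271) and the exact permutation test gave p = 0.114. In the wild types the difference by running in Set C was 0.29 (SE 0.399, adjusted p = 0.986), and it ran from 0.03 to 0.53 with single libraries left out. The interaction between running and genotype was -1.37 (95% interval -2.76 to 0.01, adjusted p = 0.797) and did not pass the unadjusted threshold. The Set B difference was 0.52 (95% interval -0.64 to 1.69, adjusted p = 0.696) and that of Set D -0.56 (95% interval -1.42 to 0.30, adjusted p = 0.763). With single libraries left out, the Set D difference ran from -0.82 to -0.33. The study selected Chrm5 by Set A, Set E and the interaction from these same animals, and its direction here is not independent evidence. By real-time PCR on the same samples, the study also reported significant Chrm5 changes in Sets A and E but not in Set D. After a repeated running period in further mice, it reported no significant Chrm5 difference between the genotypes. It also reported less Chrm5 in those knockouts than after the single period. These PCR values were not re-analysed here.

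These values turned on single libraries and on the pseudocount. With a pseudocount of 1 in place of 0.1, which shrinks differences of genes near 1 TPM, the difference of Chrm5 was -0.41 in Set E, -0.58 in Set A and -0.73 in the interaction, and each passed the unadjusted threshold. The Set E difference lost its unadjusted call when p16 WT RUN replicate 10, 11 or 12 or p16 KO RUN replicate 14 or 16 was left out and when the spread was taken from all 16 libraries. Replicate 14, the p16 KO RUN library with the lowest Chrm5 value and the highest sum of cholinergic neuron markers, moved the difference to -0.63 when left out. In Set A, the sedentary knockout library with the lowest Chrm5 value, replicate 7, was also the library lowest in nuclear RNA and the highest in choroid plexus markers. Without it the log2 difference was -1.53 and passed the unadjusted threshold (adjusted p = 0.227), and without the 3 libraries lowest in nuclear RNA it was -1.69 (adjusted p = 0.421) and passed as well. Set B passed the same threshold without replicate 7 (0.98) and without the 3 libraries (1.33). The interaction passed it without the 3 libraries and without p16 KO CTL replicate 7, p16 WT CTL replicate 2 or 4 or p16 WT RUN replicate 9, with a value of -2.18 without the 3 libraries and values from -1.83 to -1.05 over all single omissions. Without replicate 8 of the sedentary knockouts, the library with the highest Chrm5 value and the highest CA1 markers, the Set A difference was -0.76 and did not pass. The part of these libraries' composition in the result was not tested.

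**Figure D3:**
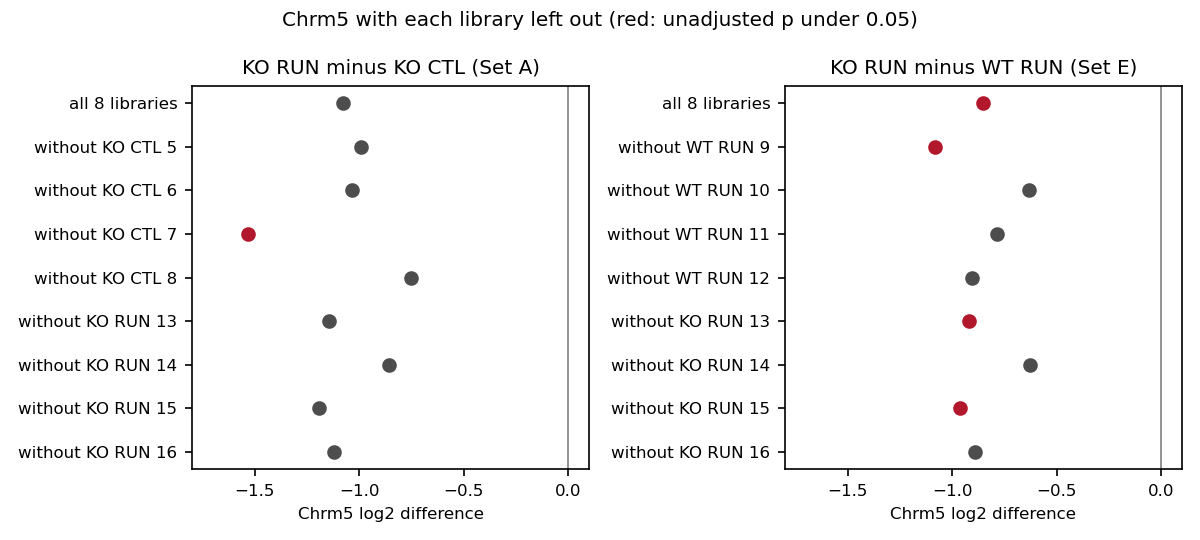
Log2 difference of Chrm5 (horizontal axes) in Set A and Set E with all 8 libraries and with each library left out in turn (vertical axes), in red where the unadjusted limma p is under 0.05. All values are negative, from -1.53 to -0.76 in Set A and from -1.08 to -0.63 in Set E, and the calls change with single libraries.

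Chrm4 was lower in runners at the unadjusted threshold. The log2 difference over both genotypes was -0.26 (SE 0.118, 95% interval -0.51 to -0.01, limma adjusted p = 0.267). With all libraries it was similar within each genotype. In the knockouts the means were 15.8 ± 2.46 TPM in runners and 18.1 ± 3.73 TPM in sedentary mice (Set A, -0.25, SE 0.149, adjusted p = 0.384), and in the wild types they were 16.0 ± 3.21 and 19.1 ± 3.63 TPM (Set C, -0.27, SE 0.174, adjusted p = 0.985). Without p16 WT CTL replicate 2, the library with the highest Chrm4 value, the Set C difference was -0.13. The interaction was 0.03 (95% interval -0.49 to 0.55). The unadjusted call over both genotypes was lost without p16 WT CTL replicate 2, where the difference was -0.19, and without any of 6 other libraries. These were p16 KO CTL replicates 5 and 8, p16 WT RUN replicates 10 and 12 and p16 KO RUN replicates 14 and 16. Set A passed the unadjusted threshold without p16 KO CTL replicate 7 (-0.35) and without the 3 libraries lowest in nuclear RNA (-0.45). Set B, at -0.03 with all libraries (95% interval -0.42 to 0.36), became 0.32 without those 3 libraries and passed it in the opposite direction.

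Chrm1 did not differ by running beyond the spread of the libraries. The log2 difference was 0.01 over both genotypes (95% interval -0.06 to 0.08, adjusted p = 0.888). The 95% interval was -0.08 to 0.15 in Set A and -0.12 to 0.09 in Set C. In Set B it was -0.10 (SE 0.0539, limma p = 0.112, exact permutation p = 0.0571), with 136 ± 10.1 TPM in p16 KO CTL and 152 ± 8.23 TPM in p16 WT CTL. With TPM as deposited the Set B difference was -0.16 and passed the unadjusted threshold, and without the 3 libraries lowest in nuclear RNA it was -0.06 and did not.

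Chrm3 and Chrm2 did not pass either threshold in any comparison. Chrm3 had a log2 difference of -0.29 over both genotypes (95% interval -0.72 to 0.13, adjusted p = 0.448) and 0.02 in Set B (95% interval -0.65 to 0.69). Chrm2 had 0.16 over both genotypes (95% interval -0.35 to 0.66, adjusted p = 0.749) and its largest pairwise difference in Set C, 0.42 (95% interval -0.29 to 1.13, adjusted p = 0.985). With single libraries left out these ran from 0.058 to 0.30 over both genotypes and from 0.25 to 0.65 in Set C. The intervals of Chrm2 were wide in each set, and moderate differences in either direction lay within them.

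**Figure D4:**
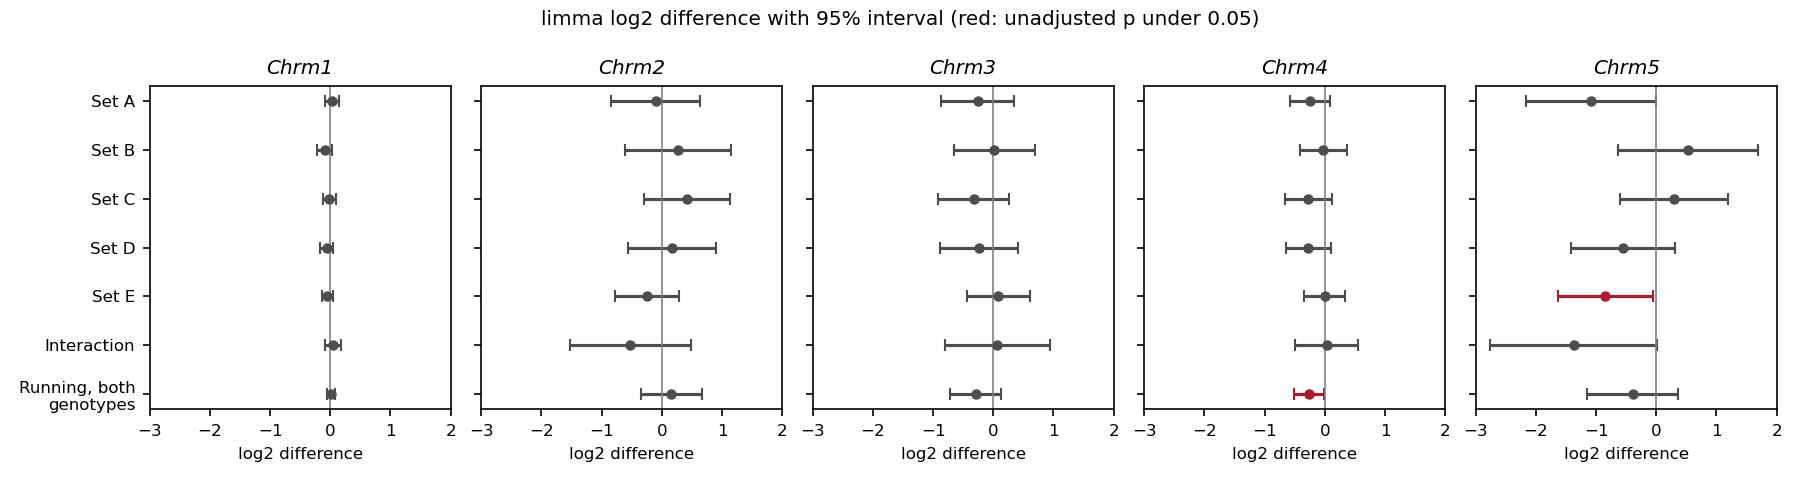
Log2 difference with its 95% interval (horizontal axes) of each muscarinic receptor gene in the 7 comparisons (vertical axis), from limma, in red where the unadjusted p is under 0.05. The red points are Chrm5 in Set E and Chrm4 between runners and sedentary mice, and the intervals of Chrm1 are the narrowest.

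The members also varied from library to library within groups, and Chrm2 and Chrm3 did so together. Over the 16 libraries their log2 values had a Pearson r of 0.69 (permutation p = 0.00301, adjusted over 10 pairs 0.0301) and a Spearman rho of 0.68 (p = 0.00447, adjusted 0.0447). It was 0.59 without the 2 libraries farthest from the median of Chrm2, 0.86 for deviations from the group means and 0.52 without the 4 libraries that stood apart in nuclear RNA or CA1 markers. None of the other 9 pairs passed the adjusted threshold, including Chrm3 and Chrm4 (r = 0.53, permutation p = 0.0359, adjusted 0.179).

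Chrm3 and Chrm2 fell where the markers of dentate granule neurons were high. The sum of these 10 markers, all detected, ranged from 790 to 1723 TPM in p16 WT CTL, 629 to 1287 in p16 KO CTL, 1006 to 1487 in p16 WT RUN and 1103 to 1640 in p16 KO RUN. Its log2 value had a Pearson r of -0.86 with Chrm3 (permutation p = 2e-05, adjusted over 75 relations 0.000937) and a Spearman rho of -0.85 (p = 4e-05, adjusted 0.001). With Chrm2 the r was -0.84 (permutation p = 5e-05, adjusted 0.000937) and the rho -0.82 (p = 0.00021, adjusted 0.00394). Within groups these r values were -0.89 and -0.92, without the 2 libraries farthest from the median marker sum -0.84 and -0.73, and without the 4 libraries that stood apart -0.72 and -0.79.

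Conversely, both receptors rose with the markers of CA2 and CA3 pyramidal neurons. Of these 9 markers 8 had a mean of at least 1 TPM, none was at 0 in all libraries, and their sum ranged from 342 to 483 TPM in p16 WT CTL, 362 to 482 in p16 KO CTL, 362 to 494 in p16 WT RUN and 330 to 483 in p16 KO RUN. The r was 0.87 with Chrm3 (permutation p = 3e-05, rho 0.87, p = 3e-05, adjusted 0.000937 and 0.001) and 0.84 with Chrm2 (permutation p = 4e-05, rho 0.86, p = 4e-05, adjusted 0.000937 and 0.001). It was 0.94 and 0.86 within groups, 0.84 and 0.77 without the 2 libraries farthest from the median, and 0.84 and 0.82 without the 4 libraries that stood apart. The GABAergic interneuron markers gave r values of 0.74 with Chrm3 (adjusted p = 0.00932) and 0.83 with Chrm2 (adjusted p = 0.00105), by permutation, with rho of 0.67 and 0.71, 0.71 and 0.84 without the 2 farthest libraries, and 0.56 and 0.82 without the 4 libraries that stood apart. The oligodendrocyte markers gave 0.74 (permutation, adjusted p = 0.00937) with Chrm3, with rho of 0.74, and 0.67 without the 2 farthest and 0.63 without the 4 libraries that stood apart. With Chrm2 they gave 0.71 (permutation, adjusted p = 0.0163), with rho of 0.64 (adjusted p = 0.0633), and 0.70 in both of these reduced sets. Chrm2 and the CA1 pyramidal neuron markers had an r of 0.67 (permutation, adjusted p = 0.0211) and a rho of 0.60 (adjusted p = 0.0829), and r was 0.34 without the 2 farthest libraries. TPM are shares of a fixed total, so that transcripts that rise in a library lower the shares of others.

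**Figure D5:**
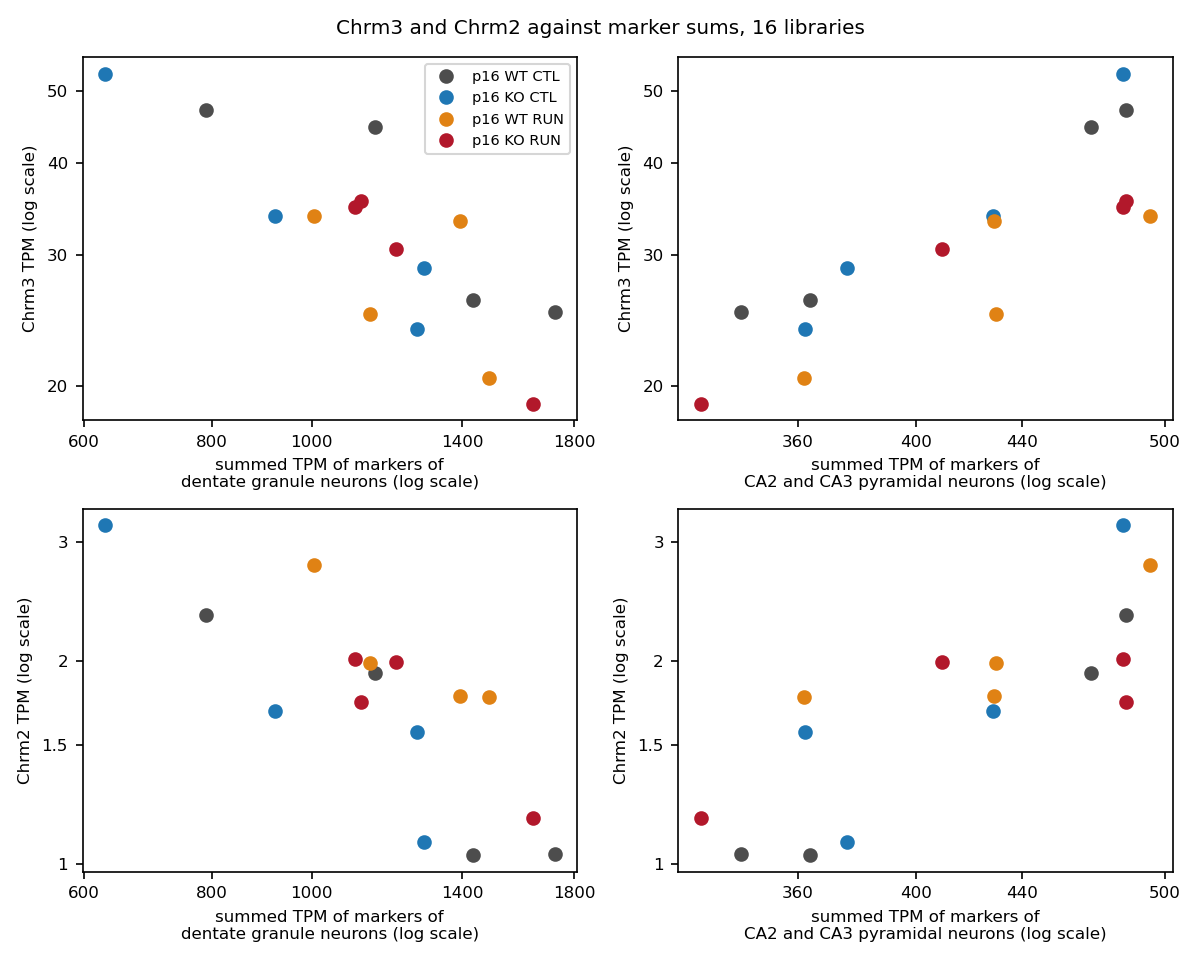
TPM of Chrm3 (upper panels) and Chrm2 (lower panels) against the summed TPM of granule neuron markers (left) and of CA2 and CA3 pyramidal neuron markers (right), on log axes, with 1 point per library coloured by group. Both receptors are lower at high granule neuron sums (r = -0.86 and -0.84) and higher at high CA2 and CA3 sums (r = 0.87 and 0.84), with the groups intermixed.

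For the other members the relation with the granule neuron markers did not pass the threshold, and the difference from Chrm2 and Chrm3 was not tested. Here r was -0.08 for Chrm1 (permutation p = 0.777), -0.43 for Chrm4 (permutation p = 0.097) and -0.37 for Chrm5 (permutation p = 0.165). Chrm1 was lower where the mossy cell markers, a sum dominated by Calb2, were high (r = -0.66, permutation p = 0.00624, adjusted 0.0425, rho -0.71, adjusted 0.0247, r without the 2 farthest libraries -0.55). A list for thalamus and habenula, which also holds Calb2, gave a like value (r = -0.63, permutation p = 0.0106, adjusted 0.0662, rho -0.74, adjusted 0.0245, r without the 2 farthest libraries -0.50). Chrm4 was lower where a list of striatal genes was high (r = -0.76, permutation p = 0.00054, adjusted 0.00675, rho -0.70, adjusted 0.0302, r without the 2 farthest libraries -0.67). Of that list 5 of 7 genes had a mean of at least 1 TPM. In it Ppp1r1b and Penk made up most of the sum, with means of 66.1 and 47.6 TPM, and Adora2a, a receptor gene of striatal neurons, was at 1.51 TPM. The sum of the list was 107 to 135 TPM in p16 WT CTL, 114 to 140 in p16 KO CTL, 124 to 168 in p16 WT RUN and 147 to 210 in p16 KO RUN. It thus moved with the lower Chrm4 of the runners, and its part in that difference was not tested. Within groups the r of Chrm4 with this sum was -0.74, and without the 4 libraries that stood apart it was -0.79. Chrm5 had no relation with an adjusted p under 0.05.

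By likeness of pattern over the 16 libraries, given as a description, Chrm3 was closest to Dnm1 (r = 0.97), Cntnap2 (r = 0.96) and Sh3gl2 (r = 0.95), among 14437 other genes averaging 1 TPM or more. These encode the synaptic vesicle proteins dynamin 1 and endophilin A1, and a neurexin-like adhesion protein of axons. Chrm2 was closest to Hcn2 (r = 0.92), a pacemaker channel gene, followed by Gm6682 (r = 0.90) and Uba1 (r = 0.89), which encodes a ubiquitin-activating enzyme. Chrm1 was closest to 4930577N17Rik (r = 0.90), Erich6 (r = 0.84) and Wdr59 (r = 0.81), Chrm4 to Fam46a, Cisd3 and Evi5l (r = 0.86, 0.86 and 0.85) and Chrm5 to Dio3, Xpot and Slc7a3 (r = 0.81, 0.78 and 0.78).

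The genes around the receptors were read from lists for acetylcholine metabolism, nicotinic receptors and their modulators, Gq and Gi/o signalling, M-current channels, RGS proteins, and receptor kinases and arrestins. Of 96 listed genes, 87 were tested. The markers of cholinergic neurons were close to absent, as Chat, the acetylcholine-synthesising enzyme, did not exceed 0.470 TPM and was listed at 0 in 9 libraries. The vesicular transporter Slc18a3 did not exceed 0.595 TPM. The sum of the 6 cholinergic neuron markers, none of which reached a mean of 1 TPM, was 1.95 TPM in p16 KO RUN replicate 14 and at most 0.537 TPM in the other 15 libraries. The same library had the highest levels of the nicotinic subunits Chrna3, Chrnb4 and Chrnb3, at 3.08, 1.70 and 1.13 TPM. Ache, which hydrolyses acetylcholine, was measured at 52.7 TPM on average and rose in Set D by 0.26 (SE 0.0949, adjusted p = 0.488), at the unadjusted threshold only.

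Between runners and sedentary mice, 11 of the 87 genes were higher and 8 lower at an unadjusted p under 0.05, or 21.8% beside 17.5% of all genes, where 1665 were higher and 1365 lower. The listed genes had a median log2 difference of 0.03 against 0.01 over all genes. Both genes with an adjusted p under 0.05 were higher in runners. Each adjusted call was lost with any of several single libraries left out, and that of Daglb also without the variance trend, as listed in the last section. Kcnj6, which encodes the GIRK2 subunit of the potassium channels opened by Gi/o-coupled receptors, averaged 82.0 ± 13.9 TPM in wild-type and 69.0 ± 10.9 TPM in knockout sedentary mice, and 101 ± 6.71 and 102 ± 9.43 TPM in the respective runners (SD, n = 4). Its log2 difference was 0.41 (SE 0.0775, limma adjusted p = 0.0227). Daglb, a diacylglycerol lipase, averaged 37.8 ± 4.24 and 34.8 ± 1.98 TPM in the sedentary groups and 46.4 ± 2.82 and 44.5 ± 4.43 TPM in the runners, with a log2 difference of 0.29 (SE 0.0599, limma adjusted p = 0.0387). Without the 3 libraries lowest in nuclear RNA both lost the adjusted call, at 0.31 (limma adjusted p = 0.206) for Kcnj6 and 0.29 (limma adjusted p = 0.168) for Daglb, and the counts over the lists were 6 higher and 2 lower, or 9.20% beside 8.73% of all genes.

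The other genes named by rule in this comparison passed only the unadjusted threshold, with limma. Among receptors and channels, Chrna7, the nicotinic α7 subunit, rose by 0.20 (adjusted p = 0.0701), Chrna1 by 0.44 (adjusted p = 0.24), Trpc4 by 0.29 (adjusted p = 0.222), Kcnj3 by 0.14 (adjusted p = 0.175) and Kcnq3, an M-current channel subunit, by 0.16 (adjusted p = 0.212). Dagla rose by 0.19 (adjusted p = 0.14), and among the RGS proteins, which speed the inactivation of G proteins, Rgs4 rose by 0.38 (adjusted p = 0.0771) and Rgs2 by 0.25 (adjusted p = 0.13), whereas Rgs14 fell by 0.18 (adjusted p = 0.198). The nicotinic receptor modulators Lypd6, Ly6h and Tmem35 fell by 0.23, 0.19 and 0.10 (adjusted p = 0.154, 0.161 and 0.197). Gnai2, a Gi α subunit, fell by 0.18 (adjusted p = 0.15), the receptor kinase Adrbk1 by 0.14 (adjusted p = 0.106) and Arrb1, β-arrestin 1, by 0.09 (adjusted p = 0.219).

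Within the knockouts (Set A), 13 listed genes were higher and 8 lower at the unadjusted threshold and none at the adjusted one, with a median of 0.02, the same as over all genes. This is 24.1% of the 87, beside 18.5% of all genes in that set, and 18.4% beside 8.49% without the 3 libraries lowest in nuclear RNA. Of the 17 named by rule, those with the largest differences were Kcnj6 (0.51, adjusted p = 0.114), Grk4 (0.49, adjusted p = 0.24), Rgs4 (0.43, adjusted p = 0.166), Rgs14 (-0.39, adjusted p = 0.114), Chrna4 (0.36, adjusted p = 0.203) and Lypd6 (-0.36, adjusted p = 0.192). Rgs2 (0.35), Dagla (0.31), Daglb (0.28), Arrb2 (0.24), Kcnq3 (0.20) and Chrna7 (0.20) also rose, and Gnai1 (-0.31), Ly6h (-0.30), Gnai2 (-0.25), Adrbk1 (-0.22) and Itpr1 (-0.17) fell, with adjusted p from 0.126 to 0.231. In the wild types (Set C) 5 genes were higher and none lower, or 5.75% beside 4.81% of all genes, namely Daglb (0.29), Kcnj6 (0.31), Chrna7 (0.21), Trpc4 (0.44) and Rgs5 (0.37), with adjusted p from 0.937 to 0.985. Without p16 WT CTL replicate 2, the library of this set that was low in nuclear RNA, 7 were higher and 1 lower, or 9.20% beside 5.88% of all genes.

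At rest (Set B) 2 listed genes were higher in the knockout and none lower, which is 2.30% of the 87 beside 6.69% of all genes. Without p16 KO CTL replicate 8, the library highest in CA1 markers, 1 was higher and 3 lower, or 4.60% beside 9.6% of all genes. The 2 genes with all libraries were Lynx1 (0.32, adjusted p = 0.625) and Rgs14 (0.18, adjusted p = 0.625). In runners (Set E) 3 were lower and none higher, or 3.45% beside 3.87% of all genes, namely Rgs14 (-0.24, adjusted p = 1), Gnai1 (-0.19, adjusted p = 1) and Rgs5 (-0.31, adjusted p = 1). In Set D 10 were higher and 3 lower, or 14.9% beside 8.63% of all genes. Adcy9 (0.76), Rgs4 (0.57), Chrna4 (0.53), Rgs2 (0.36), Lynx1 (0.35), Kcnj6 (0.33), Trpc4 (0.31), Chrna7 (0.23) and Daglb (0.23) rose beside Ache, and Rgs14 (-0.21), Tmem35 (-0.17) and Itpr1 (-0.17) fell. The adjusted p of this set ran from 0.23 to 0.526. Without p16 WT CTL replicate 2, which was low in nuclear RNA, 9 were higher and 4 lower in Set D. This is 14.9% beside 11.2% of all genes. The interaction passed the unadjusted threshold for 5 of the 87, or 5.75% beside 5.48% of all genes, namely Rgs14 (-0.42), Gnai1 (-0.38), Arrb2 (0.32), Dagla (0.25) and Adrbk1 (-0.16), each with an adjusted p of 0.797. Rgs14 and Gnai1 were, like Chrm5, among the genes the study selected on these animals, and Rgs14 is also 1 of the CA2 and CA3 markers above.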

How the data were processed

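From total RNA of the dentate gyrus the authors prepared 16 mRNA-Seq libraries and sequenced them with paired reads of 150 bases. Per the labels and the study's methods, reads were processed with bcl2fastq 2.20 and cutadapt 1.11, aligned to mm10 with STAR and summarised per gene with StringTie. The TPM values, as deposited by the authors, are StringTie abundances per gene, corrected for length and scaled to a fixed total. The FPKM values deposited beside them come from the same run and were used as an alternative. The coverage values, per the file headers, are mean read depths per base, and served for relative depth and for the read equivalents of Chrm5. Read counts were not used here, so the count-based test of the study was replaced by limma.

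Entries of the same gene name were summed. A scale factor per library, the median ratio to the average library, was taken over 13226 genes that reached 1 TPM throughout. Genes averaging 0.1 TPM or more, 17317 in all, entered limma 3.58.1 (R 4.3.3) as log2(scaled TPM + 0.1). The fits had a variance trend and were made on the 8 libraries of each set or all 16, with p adjusted over all genes by Benjamini and Hochberg. The fit was tested on simulated data, but the outcome of that test is not given here. Exact permutation tests of 4 against 4 libraries used SciPy 1.17.1. Permutation tests of correlations (on log2 values) used random permutations in NumPy 2.4.6. Coding sequences are those of GENCODE M21.

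The 5 members and all lists were chosen with earlier results of these data known. Beside the members and Cdkn2a, at most 3 genes per list and comparison were named, by smallest unadjusted p under 0.05, and the 3 genes most like each member. Single marker genes and nicotinic subunits named for the tissue or a library were chosen after their values were seen. Alternatives were other pseudocounts, filters, scalings, FPKM, no variance trend, the highest entry per gene name, all libraries in 1 fit, no genotype term and leaving out libraries.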

Additional observations from a re-analysis of the deposited data

How the results depend on the processing

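All 7 counts of members with an unadjusted p under 0.05 and all member values were recomputed under each alternative. The count in Set A, 0 as reported, was 1 (Chrm5) with a pseudocount of 1, with quantile normalization, with FPKM and with all 16 libraries in 1 fit. That in Set B, 0 as reported, was 1 (Chrm1) with TPM as deposited and without a filter. The count in Set E, 1 as reported, was 0 with all 16 libraries in 1 fit and with a filter of a mean of 1 TPM, which removes Chrm5. The interaction count, 0 as reported, was 1 (Chrm5) with a pseudocount of 1 and with quantile normalization. The count between runners and sedentary mice, 1 as reported, was 0 with TPM as deposited and without the variance trend. Sets C and D stayed at 0. With 1 library left out, the counts ran from 0 to 2 in Set A and from 0 to 1 in Sets B and E, the interaction and the comparison of runners with sedentary mice.

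Alternatives chosen after seeing the data left out libraries that stood apart. Without the 3 libraries lowest in nuclear RNA the counts were 2 in Set A (Chrm4 and Chrm5), 2 in Set B (Chrm4 and Chrm5) and 1 in the interaction (Chrm5). Without the library highest in CA1 markers, the count between runners and sedentary mice was 0.

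Of 388 member values under these settings, 361 kept direction and side of the unadjusted threshold. With direction kept, 12 gained the call and 4 lost it, and 11 values changed sign. Among those 11, Chrm4 in Set B without the 3 libraries lowest in nuclear RNA also passed the unadjusted threshold. Those that changed sign without the 3 libraries were Chrm1 in Set A (-0.0113) and over both genotypes (-0.0164), Chrm4 in Set B (0.32) and in the interaction (-0.32) and Chrm3 in the interaction (-0.29). Without the library highest in CA1 markers they were Chrm2 in Set A (0.17) and Chrm3 in Set B (-0.20). With TPM as deposited they were Chrm3 in Set B (-0.0413) and Chrm4 in Set E (-0.00744), and with quantile normalization Chrm4 in Set B (0.0183) and in the interaction (-0.0127). With 1 library left out, 35 of 360 values changed sign. The ranges were -0.34 to 0.17 for Chrm2 in Set A, -0.20 to 0.20 for Chrm3 and -0.11 to 0.12 for Chrm4 in Set B, -0.0322 to 0.00611 for Chrm1 in Set C, -0.00376 to 0.40 for Chrm2 in Set D, -0.0659 to 0.30 for Chrm3 and -0.0889 to 0.0877 for Chrm4 in Set E, -0.11 to 0.28 for Chrm3 and -0.12 to 0.12 for Chrm4 in the interaction, and -0.00441 to 0.0211 for Chrm1 over both genotypes. The cause was not tested. The smallest adjusted p of a member under any setting was 0.181. Of the 1387 recomputed values of the named list genes, 160 lost the unadjusted call and none changed sign. The adjusted call of Kcnj6 was lost without p16 KO CTL replicate 6, p16 WT RUN replicate 10 or p16 KO RUN replicate 14 or 16 (limma adjusted p = 0.052 to 0.0585). Daglb lost it without p16 WT CTL replicate 1 or 2, p16 KO CTL replicate 5, 6 or 8, p16 WT RUN replicate 10 or 12 or p16 KO RUN replicate 14, 15 or 16, and without the variance trend (limma adjusted p from 0.052 to 0.0874). No paired analysis was possible because the groups share no replicate numbers. Chrm5 rested on 7.72 to 83.2 read equivalents per library, and what difference this depth could detect was not tested.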
